A study of Arabidopsis thaliana with 11 samples.

Results

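The 268 sites described here are AP1 binding sites (BSs) of Arabidopsis thaliana inflorescences that were found 2, 4 and 8 days after floral induction. They were chosen by measured values, namely the peak intervals of the AP1 lists: a BS of day 4 was kept where its interval overlapped by at least 1 bp a BS of the day 2 list and a BS of the day 8 list. Of the 956 AP1 BSs of day 4, 268 met this rule (28.0%), among 18963 BSs in the 6 lists for AP1 and SEP3, and they are called all-day sites. The number was 142 where each overlap had to cover 50% of both intervals, 101 with −log10 q of at least 10 in each list and 164 with the lists held to 498 BSs. The other 688 BSs of day 4 comprised 124 found at days 2 and 4, 364 found at days 4 and 8, and 200 found at day 4 only. The AP1 lists of days 2, 4 and 8 held 498, 956 and 1075 BSs.

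All samples came from Landsberg plants of the genotype pAP1:AP1-GR ap1-1 cal-1, which lack functional AP1 and CAULIFLOWER and carry AP1 fused to the ligand-binding part of the glucocorticoid receptor under the AP1 promoter. The plants were given dexamethasone (DEX) daily, which lets the fusion protein enter the nucleus, and whole inflorescences were harvested 2, 4 or 8 days after induction. Chromatin was precipitated with anti-GR for AP1 or with an antibody to a SEP3 peptide, and pre-immune serum from the same plants and days served as mock control. AP1 was mapped in 2 samples of day 2 and in 1 sample each of days 4 and 8 that combine 2 replicates, and SEP3 in the same numbers. For day 2 the series' design text gives 1 biological replicate and the sample titles 2, and the titles are followed here. Replicates are pooled in each list, and their spread is therefore unknown. The titles of both SEP3 samples of day 2 disagree with their tissue label, which reads 4 days, and every SEP3 day 2 value below follows the titles. The transgene carries AP1 sequence, so reads at the AP1 locus can stem from the endogenous gene or from the transgene, and these cannot be told apart.

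APETALA1 (AP1) and SEPALLATA3 (SEP3) are MADS-domain transcription factors, which bind DNA as dimers and can join into larger complexes. Their preferred element is the CArG box, a run of A and T bases between CC and GG. AP1 turns shoot-like meristems into floral meristems by repressing flowering-time genes and then takes part in sepal and petal identity, while SEP3 is the partner that links many floral MADS-domain proteins.

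Perfect CArG boxes, with exactly 6 A or T bases between CC and GG, were found within 50 bp of the day 4 summit at 27 of the 268 all-day sites. The stretches below show boxes at regulators of flower development, at the highest sites with an assigned gene and at the longest-matching sites. Those of ATC and LSH6 were not named by a rule set beforehand. Each has 30 bases of the TAIR10 reference on the + strand, 5′ to 3′, with the box in capitals. The reference is the Columbia accession while the plants were Landsberg.
AG intron, chr4:10386521-10386550: taattatattCCAAATAAGGaaagtatgga
SHP2 promoter, chr2:17819837-17819866: aaagggattaCCAAAAAAGGaaagtttcca
AGL18 5′ UTR, chr3:21233610-21233639: agcaaagccaCCAAATATGGaaaattgcta
ATH1 promoter, chr4:15918198-15918227: tcttttttagCCATTTAAGGagaattgatg
CCB1 promoter, chr3:9812861-9812890: tataaagtagCCAATTTTGGgaaagatttt
ATC upstream, chr2:11771695-11771724: attaacatttCCAAAAATGGtaagtccaag
LSH6 upstream, chr1:2176407-2176436: tctccaccatCCAAATATGGaaaaattaaa
AT2G19460 promoter, chr2:8430474-8430503: ttacttctttCCTTAAAAGGaaaagaaaat
MIR156e upstream, chr5:3865686-3865715: gtgtgttttgCCTAAAAAGGaaagttgtca
AT5G41380 5′ UTR, chr5:16563630-16563659: ttctgttttaCCAAAAATGGcaaaaagtaa

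These boxes belong to genes of varied roles. AG specifies stamens and carpels, SHP2 acts in carpels and ovules, AGL18 is a floral repressor, and ATH1 is a BELL homeodomain protein of the meristem. ATC belongs to the TFL1 family of flowering inhibitors, and MIR156e encodes a precursor of miR156, which targets SPL transcripts. Joined over both strands, the 27 boxes took 13 forms, and the most frequent was CCAAAAATGG with 8 cases. The box centre lay a median of 13.5 bp from the day 4 summit, and 20 of the 27 boxes lay within 25 bp of it. From the summits of days 2 and 8 the median distance was 18.5 bp each. A longer form of the box, in which TT stands 1 base before CC and AA 1 base after GG, lay within 50 bp of the summit on either strand at 4 all-day sites, those of SHP2, AT2G19460, MIR156e and AT5G41380 (1.49%), and at 4 of the other sites (0.581%), against 0.0113% of windows tiled along the genome. The ATC box has the same outer bases, but with them it runs past the window and is not counted.

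CArG boxes were more frequent at all-day sites than at the other AP1 BSs of day 4. A box was present at 27 of 268 all-day sites (10.1%, Wilson 95% interval 7.02 to 14.3%) and at 32 of 688 other sites (4.65%, 3.31 to 6.49%), against 6.17% of all 956 BSs. The difference of 5.42 percentage points gave an odds ratio of 2.30 (two-sided Fisher's exact test, p = 0.00263, BH-adjusted p = 0.00614 over 7 comparisons). With −log10 q of at least 10 in each list it was 3.02 points and did not pass the test (Fisher's exact p = 0.296). By days found, the share was 3.23% for days 2 and 4, 5.49% for days 4 and 8 and 4.00% for day 4 only. Against windows of equal width centred 500 bp away, where 1 of the same 268 loci had a box (0.373%), the share at summits was 9.70 points higher (exact McNemar test, p = 2.16e-07, adjusted p = 4.32e-07 over 2 tests). In windows tiled along the 5 nuclear chromosomes 0.593% held a box. With 1 mismatch allowed, 115 all-day sites (42.9%) and 29.7% of the other sites held a box, against 11.6% of tiled windows.

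All-day sites also stood higher in the day 4 list, and the box share within bands of similar rank is therefore given. With the day 4 list cut by fold enrichment into 3 bands of equal size, in the highest band 20 of 186 all-day sites (10.8%) and 8 of 133 other sites (6.02%) held a box. In the middle band the counts were 5 of 58 all-day sites and 8 of 260 other sites, and in the lowest band 2 of 24 all-day sites and 16 of 295 other sites. The share was higher at all-day sites in each band, by 4.74, 5.54 and 2.91 points from the highest to the lowest band, and the difference passed the test in none of them (Fisher's exact p = 0.163, 0.0673 and 0.635).

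A GA-rich motif, 8 alternating bases of G and A on either strand, was examined in the same windows. It was present at 19 all-day sites (7.09%, 4.59 to 10.8%) and at 37 other sites (5.38%, 3.93 to 7.33%), against 5.86% of all day 4 BSs, a difference that did not pass the test (Fisher's exact p = 0.357, adjusted p = 0.625). The flank 500 bp away had the motif at 9 of the 268 loci (exact McNemar p = 0.0755). The excess at summits, 3.73 points, was 4.10 against the flank at lower coordinates and 10.45 with windows of 100 bp to each side, and both of these passed the test (exact McNemar p = 0.0433 and 6.17e-05). By days found the share was 12.1% for days 2 and 4, 2.75% for days 4 and 8 and 6% for day 4 only, so the all-day share lay between those of the sites that lacked day 8 and those that lacked day 2. In tests of these classes, added after the data were seen, the all-day share was 4.34 points above days 4 and 8 (Fisher's exact p = 0.012) and 5.01 points under days 2 and 4, where the test was not passed (p = 0.122). Examples at developmental regulators are shown with the motif in capitals, again as 30 bases of the + strand.
TCP18 upstream, chr3:6380734-6380763: ggcctagagatAGAGAGAGagggaagagag
AP2 upstream, chr4:17397898-17397927: tatatataggtAGAGAGAGaaatagtggga

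Among the 3 other elements searched on both strands, the LFY core CCANTG was at 38 all-day sites (14.2%) and at 10.5% of the other sites, against 12.2% of tiled windows. CACGTG, the G-box, was at 9 all-day sites (3.36%) and 2.76% of the other sites, against 1.11% of tiled windows. GGNCCC, an element bound by TCP proteins, was at 16 all-day sites (5.97%) and 6.25% of the other sites, against 2.43% of tiled windows. These shares are descriptions and were not tested. The GC content of the summit window had a median of 35.6% at all-day sites and 34.7% at the other sites.

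**Figure D1:**
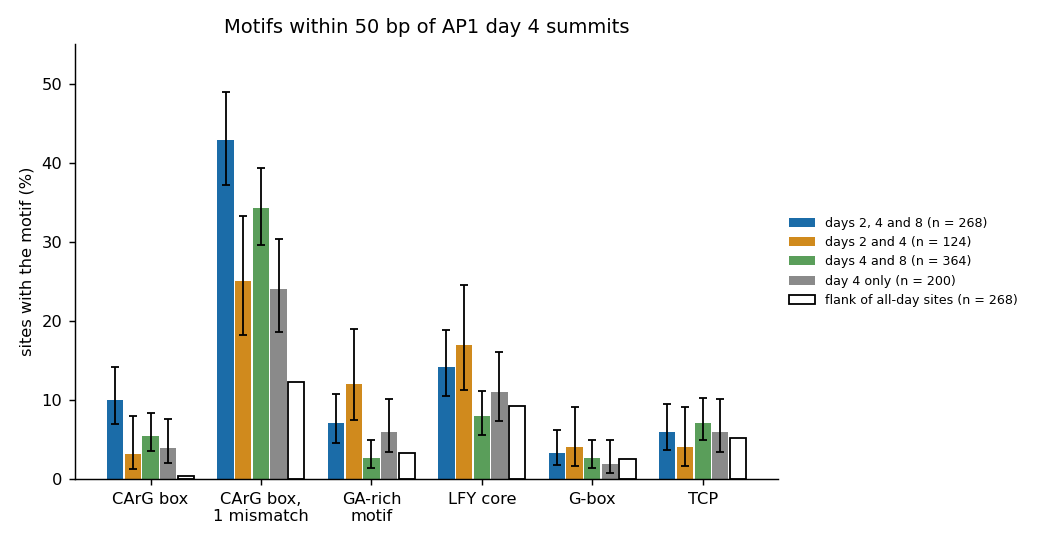
Percentage of AP1 day 4 sites with each motif within 50 bp of the summit, by the AP1 lists that hold the site, with Wilson 95% intervals, and the same for the windows 500 bp away from the 268 all-day sites (white bars, no interval drawn). The perfect CArG box is at 10.1% of all-day sites, 3.23 to 5.49% of the other classes and 0.373% of flanks.

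SEP3 was found at nearly every all-day site. At day 2, 249 of 268 all-day sites (92.9%, 89.2 to 95.4%) and 352 of 688 other sites (51.2%, 47.4 to 54.9%) overlapped a SEP3 BS, against 62.9% of all AP1 BSs of day 4. The difference of 41.7 points gave an odds ratio of 12.5 (Fisher's exact test, adjusted p = 9.68e-38). By the rule all-day sites were in the AP1 day 2 list, from which 364 and 200 of the 688 other sites were absent. The SEP3 difference cannot be told apart from this difference in AP1 day 2 calls. Sites found by AP1 at days 2 and 4 but not 8 had the next highest share, 97 of 124 (78.2%, 70.2 to 84.6%). All-day sites were 14.7 points above them (Fisher's exact p = 6.82e-05, a comparison added after the data were seen). All-day sites also had a higher median percentile in the AP1 day 2 list (61.7 against 44.3) and wider day 4 peaks (median 383.5 against 270.5 bp). The part of either in the 14.7 points was not tested. Sites absent from the AP1 day 2 list had lower shares, of 47.5% for days 4 and 8 and 41.0% for day 4 only. The difference was present within each band of the day 4 list, at 32.2, 30.6 and 51.0 points from the highest to the lowest (Fisher's exact p = 4.12e-13, 4.82e-06 and 1.07e-06). AP1 and SEP3 lists of a day were called against the same mock control, and its part in the shared sites was not tested.

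At days 4 and 8 nearly every AP1 site had a SEP3 BS. At day 8, 267 of 268 all-day sites (99.6%) and 682 of 688 other sites (99.1%) overlapped a SEP3 BS, against 99.3% of all day 4 BSs (Fisher's exact p = 0.68, adjusted p = 0.701). Where the overlap had to cover 50% of both the AP1 and the SEP3 interval, the all-day share at day 8 was 23.2 points higher (Fisher's exact p = 3.57e-11). That rule depends on peak width, and the part of width was not tested. Median AP1 width at day 4 was 384 bp at all-day and 236 bp at other sites, against 360 bp in the SEP3 day 8 list. SEP3 BSs that were themselves found at all 3 days, 1356 in number, overlapped 249 all-day sites (92.9%) and 372 other sites (54.1%), against 65.0% of all day 4 BSs, a difference of 38.8 points (Fisher's exact test, adjusted p = 5.32e-34). This comparison is not independent of that at SEP3 day 2, where the all-day count was also 249, and shares its limit. In all, 249 of the 268 sites were in all 6 lists of both factors. A single all-day site, at chr3:2290608-2290831 in the 5′ UTR of AT3G07200, met no SEP3 BS at any day, with AP1 fold enrichments of 4.07, 2.71 and 3.45 at days 2, 4 and 8. The 19 sites without a SEP3 BS of day 2 included those of PID, LMI1, AXR3 and 1 of the TCP18 sites, which were named after their values were seen.

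**Figure D2:**
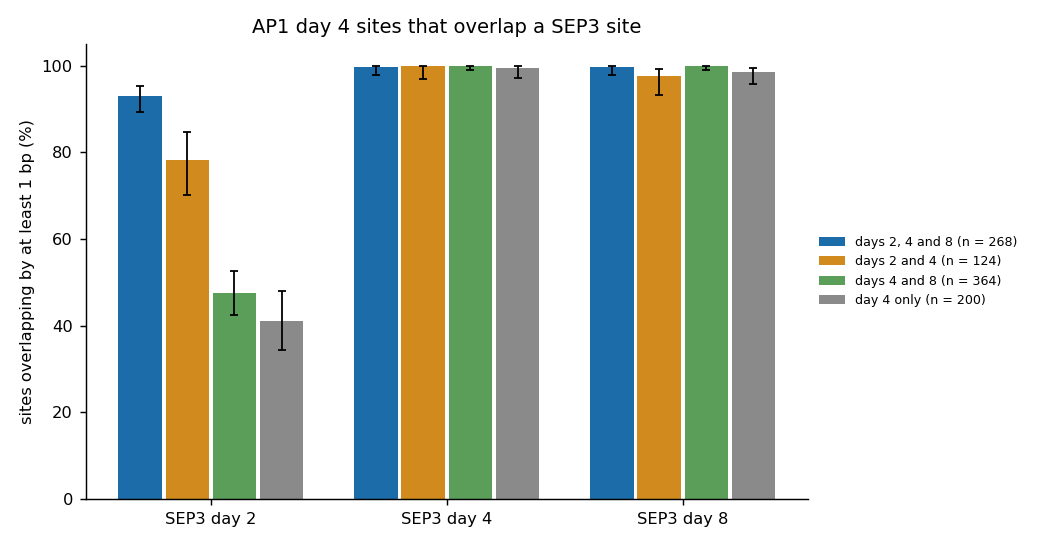
Percentage of AP1 day 4 sites that overlap a SEP3 site of day 2, 4 or 8 by at least 1 bp, by the AP1 lists that hold the site, with Wilson 95% intervals. The classes separate at SEP3 day 2, from 92.9% for all-day sites to 41.0% for day 4 only, and lie between 97.6 and 100% at days 4 and 8.

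All-day sites stood high in the SEP3 lists as well. A percentile here is the share of a list with a lower fold enrichment, the ratio of signal at the summit to the background in the mock control. The SEP3 BS at an all-day site had a median percentile of 83.9, 95.6 and 95.1 in the SEP3 lists of days 2, 4 and 8, and that at the other AP1 sites 56.0, 86.4 and 88.4. Median SEP3 fold enrichment was 6.20 at all-day sites and 4.50 at the other sites at day 2, 9.33 and 7.21 at day 4, and 6.99 and 5.77 at day 8. These levels are given without a test.

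AP1 enrichment itself belongs to the values that chose the sites, so it is described only. At day 4 the all-day sites had a median fold enrichment of 5.41 (range 2.05 to 9.19) and the other sites 3.91 (2.04 to 8.05). By days found, the median was 4.17 for days 2 and 4, 4.12 for days 4 and 8 and 3.56 for day 4 only. All-day sites filled 186 places in the highest band of the day 4 list and 24 in the lowest. Their peaks were wider too, with a median of 384 bp against 236 bp at the other sites, and a wide interval meets the overlap rule more easily.

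**Figure D3:**
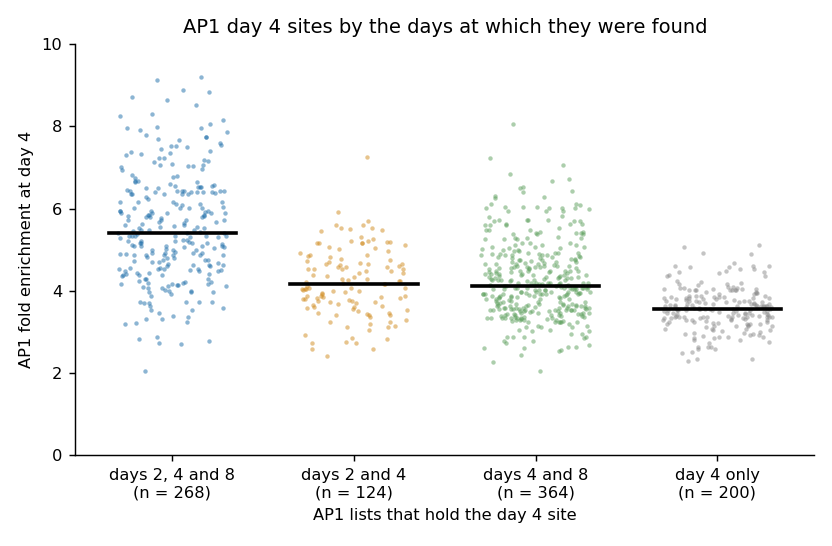
AP1 fold enrichment at day 4 of each of the 956 sites of that day (points, jittered sideways) and the median (black line), by the AP1 lists that hold the site. The median is 5.41 for all-day sites and 3.56 to 4.17 in the other classes, with wide overlap of the points.

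Within the AP1 lists, the 268 sites had median percentiles of 61.7, 79.8 and 73.8 at days 2, 4 and 8. Sites in the upper part of the list at all 3 days, above the 50th percentile, numbered 117, and 14 were below it at all 3 days. Fold enrichment across the 268 sites had a Spearman's rho of 0.469 between days 2 and 4, 0.506 between days 4 and 8 and 0.226 between days 2 and 8. Each list was called by itself, so its fold enrichments have their own scale and places within a list are given instead. These depend on the list's length, since the 268 sites stand among 498, 956 and 1075 BSs, and a change of percentile between days cannot be told apart from BSs of low enrichment added to a list. The summit moved by a median of 31 bp between days 2 and 4 and of 33 bp between days 4 and 8. In 138 sites it lay within 50 bp of the day 4 summit at both other days, and in 31 it lay over 150 bp away at day 2 or at day 8.

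The 10 sites of highest fold enrichment at day 4 included several at regulators of growth and meristem function. Ranks 1 and 3 were held by 2 sites upstream of GRF5, a growth-regulating factor that promotes cell proliferation in leaves, at chr3:4605779-4606530 and chr3:4606644-4608505. Their fold enrichments were 9.93, 9.19 and 8.03 and 8.63, 8.87 and 8.03 at days 2, 4 and 8, and at day 8 both met the same BS. The summit of that BS lay 646 bp from the day 4 summit of the first site. Rank 2 was held by a site assigned to LEJ2 at chr4:17395452-17396101, with 8.76, 9.13 and 11.8, the highest BS of the day 8 list. The promoter of SOC1, a MADS-domain integrator of flowering signals, held the site ranked 8 of 498, 4 of 956 and 5 of 1075 at days 2, 4 and 8. These sites were thus near the top of each list.

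The other 6 of the 10 were as follows. The site in the 5′ UTR of LSH1, an ALOG-domain gene, was the highest BS of day 2 with a fold enrichment of 10.5, and had 8.65 at day 4 and 5.61 at day 8, where it ranked 60. LSH2, of the same family, had a 5′ UTR site with 7.30, 8.29 and 7.10. Its rank stayed between 8 and 18 at the 3 days. SCR, a GRAS-family regulator of radial patterning, had a site 591 bp upstream with 6.60, 8.14 and 5.19, and ATH1 a site 74 bp upstream with 7.13, 8.24 and 6.72. The remaining sites of the 10 were 310 bp upstream of CCB1 (9.77, 8.71 and 7.97) and 1681 bp upstream of PG2 (7.42, 8.52 and 5.73). Of these 10, those at CCB1 and ATH1 held a perfect CArG box.

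Sites whose place in the list moved most between days 2 and 8 are given next. MIR169c, a precursor of a miRNA that targets NF-YA transcripts, had a site 755 bp upstream at percentile 7.33, 97.6 and 95.8 at days 2, 4 and 8. GH3.3, an auxin-conjugating enzyme, had a promoter site at percentile 0.703, 52.6 and 89.2. The site 434 bp upstream of AP1 stood at 5.52, 32.3 and 94.6, but its nearest day 8 summit lay 1168 bp away in a wide BS that also covers the neighbouring AP1 site. In the other direction, a site with no assigned gene at chr2:17742825-17743324 stood at 92.6, 81.1 and 5.72. BB (BIG BROTHER), a ubiquitin ligase that limits organ size, had a site 257 bp upstream at 90.6, 84.7 and 5.21, and AT5G05820 a site at 89.5, 91.6 and 6.37.

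**Figure D4:**
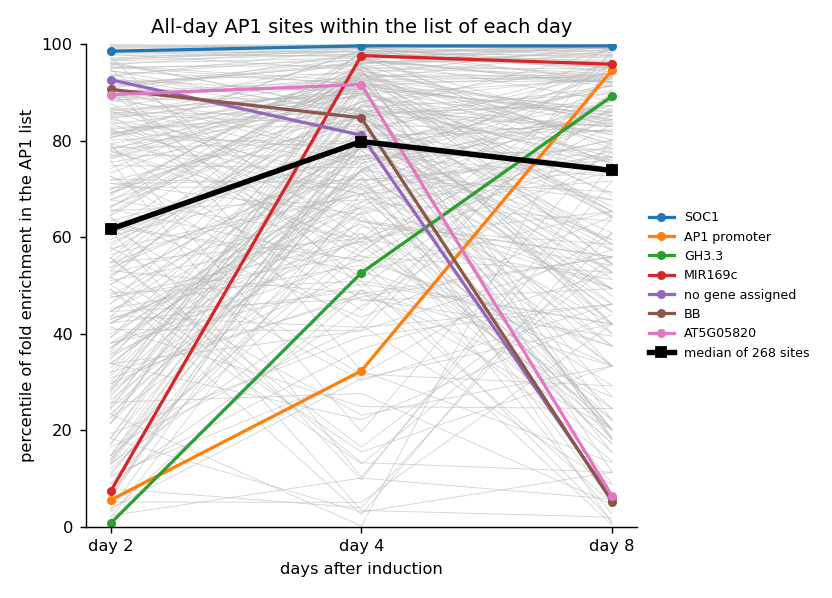
Percentile of AP1 fold enrichment in the list of each day (2, 4 and 8 days after induction) for the 268 all-day sites (grey lines), their median (black) and 7 named sites (colours). The median is 61.7, 79.8 and 73.8, SOC1 stays above 98 and 3 sites at each extreme cross most of the range between days 2 and 8.

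At the edge of the rule, the smallest overlap of an all-day site was 28 bp, at chr1:27042736-27043068 with the day 8 BS, followed by 59 bp at AT1G56030 and 60 bp at chr1:25666793-25666994, both with the day 2 BS. Just outside the rule, a day 4 site of AT5G05820 lay 65 bp from a day 8 BS and had fold enrichments of 5.97 and 7.25 at days 2 and 4. A site of AT5G49100 and AT5G49110 lay 90 bp from a day 2 BS, and a site of SEP3 lay 139 bp from a day 8 BS with 5.43 and 5.50 at days 2 and 4. Of the 268 sites, 17 overlapped more than 1 BS of day 2 and 5 more than 1 BS of day 8.

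The position of summits relative to genes was alike in most shares at all-day and other sites, and neither class tested passed the threshold. Promoters, taken as the 1000 bp before a gene, held 84 all-day summits (31.3%, 26.1 to 37.1%) and 226 other summits (32.8%, 29.4 to 36.5%), against 32.4% of all day 4 BSs (Fisher's exact p = 0.701, adjusted p = 0.701). 5′ UTRs held 23 all-day summits (8.58%, 5.79 to 12.6%) and 53 other summits (7.70%, 5.94 to 9.94%), against 7.95% of all (Fisher's exact p = 0.69, adjusted p = 0.701). Intergenic sequence beyond the promoters held 108 of the all-day summits (40.3%, against 43.0% of other summits) and introns 19 (7.09 against 7.27%). Noncoding exons held 17 (6.34 against 3.78%), 3′ UTRs 14 (5.22 against 4.51%) and coding exons 3 (1.12 against 0.872%). None of these classes was tested. The median distance to the nearest start of a protein-coding gene was 1484 bp at all-day sites and 1342 bp at the other sites. All-day sites were spread over the chromosomes, with 73, 53, 37, 40 and 65 on chromosomes 1 to 5.

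All-day sites lay at 301 genes as the authors assigned them, of which 296 were in the annotation used here, or 0.781% of 37899 annotated nuclear genes. Of the 1045 genes with any AP1 BS at day 4, these were 28.8%. No gene was assigned to 48 of the sites. Of 178 genes in 15 lists of developmental regulators, 64 had an AP1 BS at day 4 and 41 had an all-day site, which is 64.1% of the 64. The lists were drawn up with earlier results of these data known, so this share is not independent evidence. The 56 sites at list genes had fold enrichments of 3.31 to 9.19 at day 4 (median 5.92). Among them, 53 sites met SEP3 at day 2, 4 held a perfect CArG box and 7 a GA-rich motif. Over all 268 all-day sites these counts were 249 (92.9%), 27 (10.1%) and 19 (7.09%).

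Floral organ identity MADS-box genes were the list with 8 of 14 members at all-day sites, and every member with an AP1 BS at day 4 had one. At AP1 itself 3 sites lay 434, 1591 and 2557 bp upstream of the gene, with fold enrichments of 2.89, 3.73 and 5.63, of 3.88, 3.96 and 5.63 and of 4.75, 4.00 and 7.21 at days 2, 4 and 8. All ranked higher in the day 8 list than in the lists of days 2 and 4, with the transgene as the limit named above. The sites at 434 and 1591 bp take their day 8 value from the same BS, whose summit lies 1168 bp from the first. FUL, a close relative of AP1 that acts in the inflorescence and fruit, had a site 36 bp upstream with 5.55, 4.90 and 2.78 and another 958 bp upstream with 4.57, 6.46 and 5.31. The nearer FUL site fell to rank 794 of 1075 at day 8, while the farther one was at rank 73.

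Genes of the inner whorls were among them. AP3, which specifies petals and stamens, had a site in its 5′ UTR with fold enrichments of 4.07, 3.31 and 3.25 at days 2, 4 and 8. AG had its site inside an intron, 3699 bp from the gene start, with 5.61, 5.15 and 4.96, and SHP2 had one 256 bp upstream with 4.09, 5.33 and 3.29. The AG and SHP2 boxes are printed above. SEP3 had a site 2728 bp upstream that was near the top of each list, with 7.95, 7.92 and 7.36, and a weaker site in an intron with 3.78, 4.39 and 2.96. The promoter of SEP4 held a site with 4.89, 6.39 and 4.47, and AGL6 was assigned a site 2253 bp upstream with 3.18, 4.59 and 3.32.

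Flowering-time MADS-box genes had all-day sites at 4 of 13 list members. SOC1 carried 4 sites, 1885 bp inside the gene and 32, 643 and 1972 bp upstream. The site at 32 bp had fold enrichments of 8.02, 8.84 and 8.99 at days 2, 4 and 8, and that at 1972 bp had 5.12, 6.49 and 7.24. The intronic one had 3.54, 6.42 and 4.41, and the site at 643 bp had 5.51 and 6.65 at days 2 and 4 and shared its day 8 BS with the site at 32 bp. SVP, a floral repressor that acts with FLC, had a site 1965 bp upstream with 5.14, 5.93 and 4.92. The repressors AGL15 and AGL18 had 3.72, 6.75 and 4.39 in the promoter and 5.01, 6.52 and 4.53 in the 5′ UTR.

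Flowering time and meristem identity genes outside the MADS family had all-day sites at 7 of 16 list members. FD, the bZIP partner of FT, had sites 2383 and 1729 bp upstream with fold enrichments of 8.45, 7.85 and 5.79 and of 5.50, 6.49 and 3.50 at days 2, 4 and 8, and another beyond the gene end, 2443 bp from the start, with 4.61, 7.39 and 4.72. At the first of them the rank was 6, 17 and 47. AP2, which acts in organ identity and represses flowering, had sites 2668 and 1647 bp upstream with 7.36, 7.95 and 8.87 and with 4.48, 7.0 and 5.67. The day 8 summit of the first lay 544 bp from its day 4 summit, at 3212 bp upstream. The AP2-like repressors TOE3 and SMZ had 6.57, 5.73 and 5.07 and 6.90, 5.79 and 4.35. TEM1, a repressor of FT, had 5.22, 4.87 and 9.18, at ranks 89, 292 and 3. UFO, an F-box cofactor of LFY, had 3.19, 5.22 and 2.04, and LMI1, a homeodomain target of LFY, had 3.95, 6.55 and 5.19. LFY itself had an AP1 BS at day 4 but no all-day site.

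Around AP2 the all-day sites extended past the pair assigned to that gene. The LEJ2 site lay 4781 bp upstream of the AP2 start, and 3 more lay 4475, 7824 and 8837 bp beyond the start on the gene's other side, so 6 of the 268 sites stood within 10000 bp of it. The site 7824 bp away had fold enrichments of 7.27 and 7.70 at days 2 and 4 and no assigned gene. The neighbour at 8837 bp had 3.40 and 7.35 at days 2 and 4. Both met the same day 8 BS, which had 9.18. The summit of that BS lay 8845 bp from the AP2 start, 1021 bp from the day 4 summit of the site at 7824 bp. This locus was singled out after its values were seen.

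**Figure D5:**
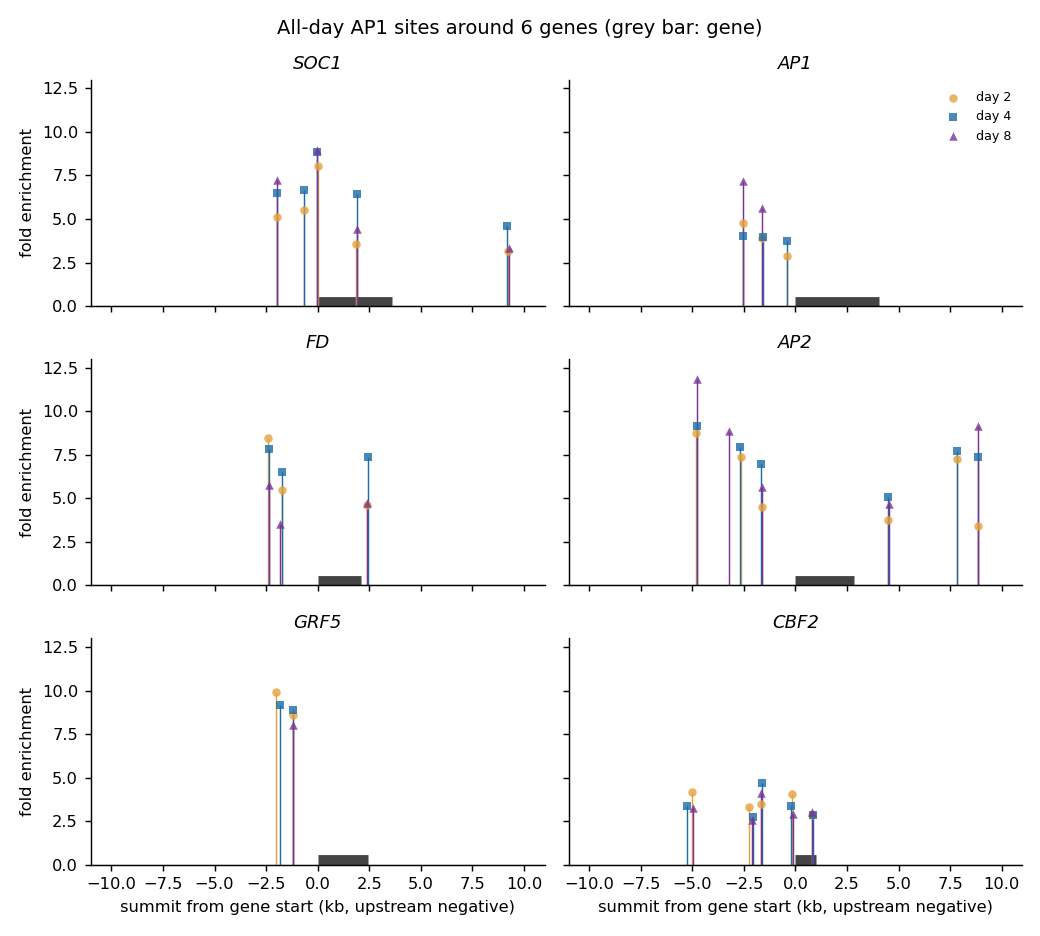
Summits of all-day AP1 sites within 10 kb of the starts of 6 genes, at their distance from the gene start (kb, upstream negative), with AP1 fold enrichment at days 2, 4 and 8 as circles, squares and triangles. Day 8 values at AP2 reach 11.8, and the CBF2 sites lie at 4.69 or lower. Fewer triangles than squares appear where a day 8 site spans 2 day 4 sites.

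Boundary and lateral organ genes had all-day sites at 6 of 10 list members. BOP1 and BOP2, paralogs that form leaf and flower boundaries, had sites with fold enrichments of 6.29, 7.38 and 4.35 and of 5.21, 4.40 and 3.20 at days 2, 4 and 8. CUC3, a NAC factor that keeps organs separate, had 3.31, 5.34 and 3.92. AS1, a MYB factor that represses KNOX genes in leaves, had 6.98, 6.43 and 3.02, and its rank was 23, 73 and 604. Along with LSH1 the related LSH3 had 4.85, 5.73 and 3.14. Apart from CUC3, these genes had a lower percentile at day 8 than at day 2. Of all 268 all-day sites, 111 were lower and 157 higher at day 8. The limit on changes of percentile given above holds here too.

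Meristem and polarity genes were fewer. KNAT6, ATH1 and AIL6 were the 3 of 15 meristem regulators with an all-day site, and outside ATH1 the values were 4.81, 5.11 and 2.90 for KNAT6 and 5.36, 5.61 and 3.06 for AIL6. Of 15 polarity genes only PHB and PHV, HD-ZIP III factors of the upper leaf side, had all-day sites, while FIL, REV, KAN1, KAN2 and KAN3 had an AP1 BS at day 4 without one. PHB had 3.83, 6.39 and 5.43, and PHV had sites with 4.67, 4.68 and 4.01 and with 4.01, 6.94 and 2.71. The day 8 summit at PHB lay 522 bp from its day 4 summit. The first PHV site lay in intergenic sequence beyond the gene, 5944 bp from its start, and the second 1040 bp upstream. SPL9 and SPL4, factors of the miR156 pathway, had 5.10, 6.52 and 3.60 and 4.22, 4.87 and 2.72, as 2 of 14 SPL genes.

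Growth, branching and hormone genes completed the list. Besides GRF5, GRF3 had a 5′ UTR site with fold enrichments of 3.91, 4.93 and 2.90 and another 2123 bp upstream with 5.10, 6.39 and 4.47. TCP18 (BRANCHED1), which holds back axillary buds, had a site 2498 bp upstream that reached rank 2 at day 8, with 4.62, 7.09 and 9.78, and a 5′ UTR site with 3.78, 4.90 and 4.17. SAP, a regulator of flower and ovule development, had sites with 5.44, 5.14 and 3.14 and with 5.03, 5.92 and 2.80. GA2OX1, which inactivates gibberellins, had 4.24, 6.01 and 5.79, and TPPI, a trehalose-6-phosphate phosphatase, had 3.40, 5.09 and 6.06. Among auxin genes, PID, a kinase that directs PIN proteins, had 5.05, 3.47 and 4.17, and the auxin response factors ETT and ARF6 had 5.54, 5.79 and 4.71 and 4.75, 4.21 and 3.02. The lists of SHINE and MIXTA-like genes and of type-A ARR and CKX genes had no all-day site.

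Of the 268 all-day sites, 63 had another all-day site within 3000 bp, in 27 groups of up to 4. Another AP1 BS of day 4, of any class, lay within 3000 bp of 126 all-day sites (47.0%) and of 265 other sites (38.5%), against 40.9% of all day 4 BSs, a difference that was not tested. The SOC1 group spanned 3857 bp with 4 sites, and 4 more lay at FUL and towards COB in 4306 bp. Another group of 4 lay in 2889 bp at CBF2 and its tandem neighbour DREB1A, transcription factors of the cold response, and a further site lay towards CBF1. These were named after their values were seen. Fold enrichments of the CBF2 group lay between 2.74 and 4.69 at day 4, in the lower part of the list but for 1 site. The CBF genes are closely similar copies, and reads that map to several places were removed, so values there are uncertain.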

How the data were processed

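ChIP-seq for AP1-GR and SEP3 and mock precipitations were made in the plants described above. According to the study's methods and the submitters' processing notes, the authors called bases with CASAVA 1.7 or 1.8, mapped reads to TAIR10 with Bowtie 0.12.7, removed reads of organelles or with several locations, pooled the replicates and, with MACS2, called peaks over the mock control of each day. The deposited lists give each peak's fold enrichment, a linear ratio of summit signal to control background, and −log10 of its p-value and q-value as the authors' caller wrote them. Lists were called separately, so values of one are not on the scale of another, and a site missing from a list is not proof of no binding. Read depth and mock signal were not analysed here. The lists hold only peaks past the caller's threshold.

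Blank rows (230 at day 4, 111 at day 8) were dropped. Where several peaks overlapped, the one with the nearest summit gave the values. All positions are TAIR10, counted from 1. Sequence and gene models came from the RefSeq copy TAIR10.1, whose 5 nuclear chromosomes hold every peak. Of 336 pairs of an all-day site and a gene that the authors list, 330 name a gene in the annotation and 329 fall in the study's window of 3000 bp before to 1000 bp after the gene. Shares were compared with two-sided Fisher's exact tests (BH-adjusted over 7 comparisons) and exact McNemar tests, in Python 3.11.15 with SciPy 1.17.1. Fisher's test was tried on simulated data, and the McNemar test was not. Wilson 95% intervals reflect counting error alone. Peaks are not replicates, so a p describes these lists and not a population of plants. Sites named were the 10 highest at day 4, those at list genes, the 3 that moved most in rank each way, the 3 nearest the rule on each side and those with the longer CArG box, unless said otherwise. Members and lists were chosen with earlier results of these data known. Alternatives changed the overlap, the −log10 q limit (10), the list length (498), the window, the flank, the promoter and the gene assignment.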

Additional observations from a re-analysis of the deposited data

How the results depend on the processing

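No paired analysis was possible because every list pools its replicates, and for the same reason no replicate could be left out. The count of 268 all-day sites was 142 with a reciprocal overlap of 50%, 101 with −log10 q of at least 10 and 164 with 498 sites per list, since each of these admits fewer sites or overlaps. The higher CArG box share of all-day sites, by 5.42 points, passed the test in 9 of 13 alternatives. It did not at −log10 q of at least 10 (3.02 points) or within the highest, middle and lowest of 3 bands by fold enrichment (4.74, 5.54 and 2.91 points). Each of these holds fewer sites, and the part of site number or of fold enrichment was not tested. The GA-rich motif difference of 1.71 points had the other sign with reciprocal overlap (-0.263), with 25 bp windows (-0.0673) and against sites of days 2 and 4 (-5.01), and passed the test against days 4 and 8 (4.34). Against the flank, the GA-rich difference of 3.73 points passed with 100 bp windows (10.45) and with the flank at lower coordinates (4.10). The promoter difference of -1.51 points changed sign with summits within 150 bp (0.0833) and against days 2 and 4 (4.73), and that of 5′ UTRs, 0.879, against day 4 only (-2.92) and days 2 and 4 (-0.289). The SEP3 day 8 difference of 0.499 points was 23.2 and passed the test with a reciprocal overlap of 50%, and was -0.373 against days 4 and 8. The cause of these shifts was not tested. The SEP3 day 2 difference passed in all 12 alternatives, by 14.7 points (against days 2 and 4) to 51.9 points (against day 4 only). Genes with an all-day site numbered 172 and list genes 21 when summits were assigned only from 1000 bp upstream to the gene end, a narrower window than the authors'. The comparisons with days 2 and 4 and with days 4 and 8 were added after the data were seen. Read depth was not used here.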
